A study of Mus musculus with 4 samples.

Results

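Histone lysine demethylases remove methyl groups from histone tails, and 10 of their genes were examined for peaks of the methyltransferase KMT9 and of its histone mark: Kdm1a, Kdm1b, Kdm2a, Kdm2b, Kdm3a, Kdm4a, Kdm4b, Kdm5a, Kdm5b and Kdm6b. They were taken by name, and all 10 were found among 21853 protein-coding genes. The material was a culture of mouse colorectal tumour organoids (clone 3, passage 14), raised from a tumour of the azoxymethane and dextran sulfate sodium model. Their genotype is labelled NA, and the treatment text names tamoxifen and vehicle without saying which these libraries received. Chromatin immunoprecipitation was done with antibodies against KMT9alpha (encoded by N6amt1), KMT9beta (encoded by Trmt112) and histone H4 monomethylated at lysine 12 (H4K12me1), 1 library each, with an input library that is not analysed here. All libraries come from 1 clone, so every value below describes these libraries and has no replicate check.

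The demethylases fall into classes by chemistry and by the methyl mark they remove. KDM1A and KDM1B, also called LSD1 and LSD2, are flavin-dependent amine oxidases that act on mono- and dimethylated H3K4. The others carry a JmjC domain, which uses iron and 2-oxoglutarate: KDM2A and KDM2B act mainly on dimethylated H3K36, KDM3A on mono- and dimethylated H3K9, KDM4A and KDM4B on trimethylated H3K9 and H3K36, KDM5A and KDM5B on di- and trimethylated H3K4, and KDM6B on H3K27. KDM1A acts in the CoREST corepressor complex, and KDM2B brings a variant Polycomb complex to unmethylated CpG islands.

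The deposited lists hold 26146 KMT9alpha, 90349 KMT9beta and 60289 H4K12me1 peaks on the assembled chromosomes. Each peak has a score made by the authors' peak caller. It is used here only to rank peaks within a list, and 19.2% of KMT9alpha peaks sit at the ceiling of 3100 or above. Sequencing depth is unknown, and a missing peak does not show that the protein or the mark was absent. Peaks do not measure expression. As a check of the tissue label, marker genes were examined for promoter peaks of all 3 libraries, which 35.5% of all protein-coding genes had. They were present at 7 of 9 epithelial marker genes (Epcam, Cdh1, Krt8 and others), against 0 of 8 marker genes of immune, endothelial and stromal cells. Of these 8, 3 had peaks of some libraries: Cdh5 (KMT9beta and H4K12me1), Pecam1 (both KMT9 subunits) and Col1a1 (KMT9beta). The marker sets also differ in CpG content, with median observed to expected ratios of 0.598 and 0.245, so the contrast is a weak check. The epithelial exceptions were Krt20, the marker of mature colonic epithelium, which had no promoter peak, and Cdx2, which had both KMT9 subunits without H4K12me1.

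Promoter DNA from 6 starts is shown because it spans the range from all 3 libraries to no KMT9alpha, and from CpG-rich to CpG-poor. Each stretch is 150 bases of mm10, taken as close upstream of a start as could be had outside every exon annotated by GENCODE or RefSeq, and read 5′ to 3′ on the strand of the gene. The first is from an internal start of Kdm2b (chr5:122900368-122900517, minus strand, 13 to 162 bases upstream), where all 3 peaks cover all 150 bases. Kdm1a (chr4:136602788-136602937, minus strand) and Kdm4b (chr17:56325820-56325969, plus strand) are covered whole by both KMT9 subunits, and by H4K12me1 over 56 and 57 bases. Kdm5b (chr1:134560021-134560170, plus strand) has both subunits over all 150 bases and H4K12me1 over 0 bases, while in Kdm3a (chr6:71632991-71633140, minus strand) the mark covers 97. Kdm6b (chr11:69413676-69413825, minus strand) is the promoter without KMT9alpha: KMT9beta covers 150 bases and H4K12me1 112. Capitals mark matches of 3 short motifs on either strand: the GC box GGGCGG, the CCAAT box CCAAT and the E-box CACGTG.
Kdm2b, internal start: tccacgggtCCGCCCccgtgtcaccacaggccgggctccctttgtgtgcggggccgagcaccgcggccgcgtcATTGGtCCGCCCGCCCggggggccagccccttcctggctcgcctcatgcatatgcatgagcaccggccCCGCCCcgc
Kdm1a: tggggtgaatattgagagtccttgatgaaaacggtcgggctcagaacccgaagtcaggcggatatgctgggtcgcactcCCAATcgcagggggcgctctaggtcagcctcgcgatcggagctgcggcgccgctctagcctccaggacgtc
Kdm4b: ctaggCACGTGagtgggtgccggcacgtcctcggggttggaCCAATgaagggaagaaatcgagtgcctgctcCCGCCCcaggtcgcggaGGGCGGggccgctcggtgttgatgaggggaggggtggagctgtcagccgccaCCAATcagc
Kdm5b: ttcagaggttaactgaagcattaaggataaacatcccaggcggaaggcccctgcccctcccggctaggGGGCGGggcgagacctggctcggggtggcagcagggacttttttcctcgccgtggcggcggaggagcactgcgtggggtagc
Kdm3a: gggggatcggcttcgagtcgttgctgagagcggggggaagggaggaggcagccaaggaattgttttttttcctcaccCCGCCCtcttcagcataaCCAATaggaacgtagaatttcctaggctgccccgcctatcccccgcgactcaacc
Kdm6b: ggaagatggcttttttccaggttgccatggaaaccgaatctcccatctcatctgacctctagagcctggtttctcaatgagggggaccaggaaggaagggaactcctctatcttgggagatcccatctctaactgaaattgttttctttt
The stretches held 17 CpG dinucleotides in Kdm2b, 14 in Kdm1a, 12 in Kdm4b, 10 in Kdm5b and 9 in Kdm3a, but 1 in Kdm6b. Stretches not printed were mixed. That of an internal Kdm2a start held 5, with all 3 peaks over 150 bases. That of the RefSeq start of Kdm6b held 1, with KMT9alpha over 99 bases. Those of the first starts of Kdm2a and Kdm2b held 4 and 2, with KMT9alpha over 0 bases. Another internal Kdm2b start and a RefSeq start of Kdm3a held 1 and 0, also with KMT9alpha over 0.

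A promoter peak was one that reached within 1 kb of a GENCODE start, taking every protein-coding transcript of the gene. KMT9beta and H4K12me1 peaks were called at all 10 promoters and KMT9alpha peaks at 9, the exception being Kdm6b. Over all protein-coding genes 65.1% had KMT9beta, 44.9% H4K12me1 and 54.2% KMT9alpha. All 3 libraries were present at 9 of 10 genes, against 35.5% of all genes. In each of the 9 they lay at the same annotated start (34.6% of all genes) and shared bases (33.2%). Counted inside the promoter windows only, the stretch shared by all 3 ran from 592 bp in Kdm4b to 3102 bp in Kdm2b. The Kdm2b value sums 3 separate promoters. The median was 706 bp, against 736 bp over all genes with the 3 libraries.

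These genes are not typical of the genome in sequence. For each gene the CpG observed to expected ratio was taken from its richest start, within 1 kb on either side. The median was 0.785 in the 10 genes and 0.509 over all genes. Of the 10 genes, 7 lay in the highest of 5 equal CpG classes. All 7 of these had all 3 libraries, and so did 69.7% of the 4371 genes of that class. The class shares were 92.5% for KMT9alpha, 96.5% for KMT9beta and 74.1% for H4K12me1. Kdm1b (ratio 0.65, the fourth class) and Kdm4a (0.502, the third) also had all 3. Kdm6b, with a ratio of 0.188, lay in the lowest. The genes also have more annotated starts than most (mean 3.7 against 2.49). Among the 13246 genes with 2 to 8 starts 40.4% had all 3, and all 9 demethylase genes in this range did.

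**Figure D1:**
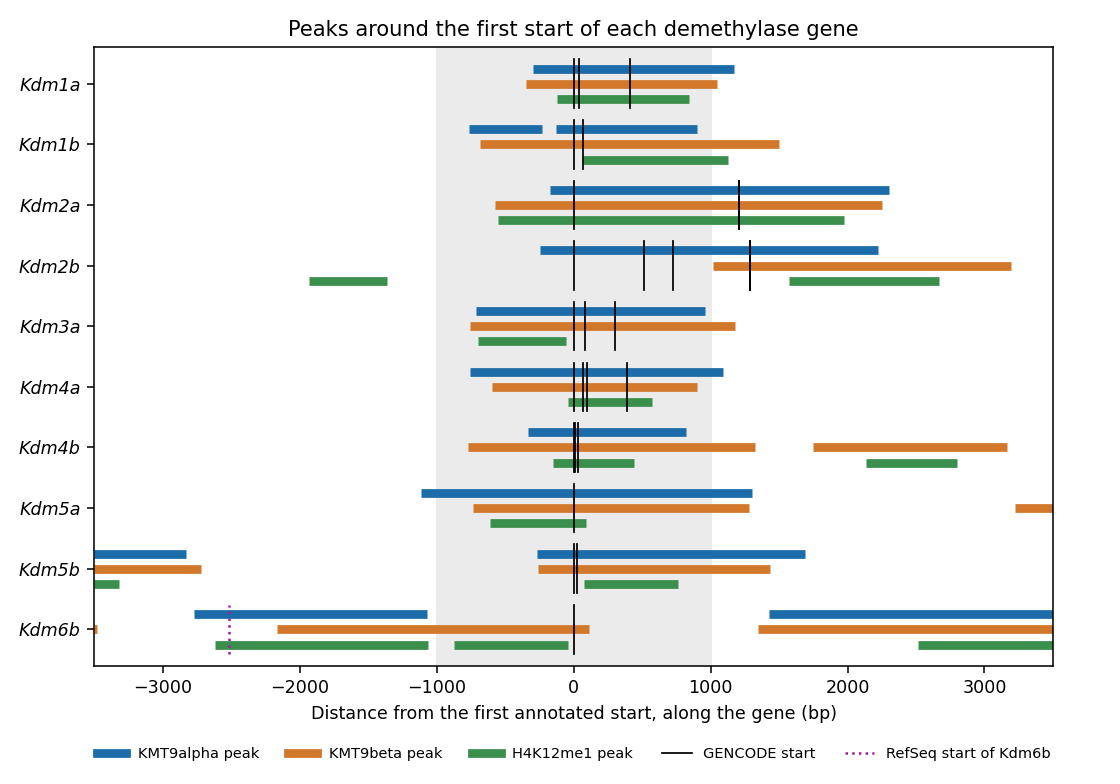
Peaks of KMT9alpha, KMT9beta and H4K12me1 around the first annotated start of each demethylase gene, in bp along the gene's strand. Vertical lines are GENCODE starts, the grey band is 1 kb either side of the first, and the dotted line is the RefSeq start of Kdm6b. In Kdm6b the KMT9alpha peaks lie on both sides of the band. In Kdm2b 1 H4K12me1 peak begins 1570 bp downstream of the first start, and another lies upstream, from -1933 to -1361 bp.

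Among the H3K4 demethylases of the amine oxidase class, Kdm1a (chromosome 4, 136550540 to 136602723, minus strand) carried 3 overlapping peaks. KMT9alpha spanned 136601552 to 136603018 with a score of 3100. KMT9beta spanned 136601673 to 136603072 with a score of 205.29, above 86.3% of its list. H4K12me1 spanned 136601882 to 136602843 with a score of 185.92, above 92.7% of its list. The 962 bp of the H4K12me1 peak lay wholly inside both others, around the 3 upstream starts. A pair of starts 25565 and 34116 bp further down, annotated for shorter coding sequences, had no peak of any library.

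Kdm1b (chromosome 13, 47043499 to 47085279, plus strand) shares its promoter with Tpmt, which encodes thiopurine methyltransferase and starts 289 bp away on the other strand, so its peaks cannot be given to either gene. It had the highest KMT9beta promoter score of the 10 genes, 713.09, above that of 97.3% of genes with such a peak. Its KMT9alpha signal was called as 2 peaks, with scores of 208.95 and 1148.2. The higher of these was still the lowest best KMT9alpha promoter score of the 9 genes. H4K12me1 had a score of 175.81 and began 69 bp downstream of the start. Kdm1b thus had the highest KMT9beta and the lowest best KMT9alpha promoter score of the genes with both.

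The other H3K4 demethylase genes, Kdm5a and Kdm5b, had KMT9alpha at the ceiling and H4K12me1 scores below the median of all genes with such a peak (104.12). Kdm5a (chromosome 6, 120364124 to 120444574, plus strand) shares its promoter with Ccdc77, which starts 250 bp away on the other strand. Its scores were 3100 for KMT9alpha, 464.48 for KMT9beta and 85.75 for H4K12me1, the last above 58.3% of its list. The mark lay mostly upstream, from -614 to 91 bp relative to the start. Kdm5b (chromosome 1, 134560171 to 134635285, plus strand) had 3100, 283.12 and 66.19. Its H4K12me1 peak lay downstream, from 78 to 764 bp, and scored above 17.4% of its list. This was the lowest best H4K12me1 promoter score of the 10 genes. In both genes the subunits covered the start on both sides, while the mark crossed it in Kdm5a and began after it in Kdm5b.

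The H3K36 demethylase genes Kdm2a and Kdm2b had the highest best H4K12me1 promoter scores of the 10 genes, and each carried all 3 libraries at separate starts. Outside the promoter windows, H4K12me1 peaks reached 390.76 in Kdm6b and 290.03 in Kdm4b. Kdm2a (chromosome 19, 4314419 to 4398285, minus strand) had a KMT9alpha peak of 2476 bp, a KMT9beta peak of 2826 bp and an H4K12me1 peak of 2529 bp at its upstream starts, and the 3 shared 2147 bp. Their scores were 3100, 486.88 and 388.11, the last above 99.0% of the H4K12me1 list. Chromosome 19 is rich in the mark: 72.3% of its genes had an H4K12me1 promoter peak. A second set lay at a start 64284 bp downstream, annotated for a coding sequence of 292 codons against 1161 for the longest. There the scores were 3100, 313.68 and 78.27.

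Kdm2b (chromosome 5, 122870665 to 122989823, minus strand) had 8 annotated starts, and 5 of them carried all 3. At the upstream cluster the KMT9alpha peak (122987601 to 122990067, score 3053.91) reached 5 starts, the KMT9beta peak (248.97) reached 4 and the H4K12me1 peak (167.57) reached 3. Another H4K12me1 peak (68.84) lay upstream of the first start, 361 bp outside the promoter window. Antisense RNA A930024E05Rik starts 48 bp from a Kdm2b start on the other strand. The start 37317 bp downstream had 294.76 for KMT9alpha, 388.93 for KMT9beta and 284.96 for the mark. The start 89468 bp downstream had 3100, 495.94 and 275.06, and the 3 peaks shared 1681 bp. This last start is the CpG-rich stretch printed first above (ratio 0.886) and is annotated for 776 codons, against 1309 for the longest form. Short forms of KDM2A and KDM2B that lack the JmjC domain are known, and no RNA was measured in these files. The H4K12me1 peaks at both internal starts of Kdm2b ranked above the one at its upstream cluster, in contrast to Kdm2a, where the upstream peak ranked higher.

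The H3K9 demethylase gene Kdm3a (chromosome 6, 71588972 to 71632990, minus strand) had a KMT9alpha score of 2666.37, a KMT9beta score of 342.95 and an H4K12me1 score of 97.02. The H4K12me1 peak lay wholly upstream, from -696 to -54 bp relative to the first start, inside both subunits' peaks. No peak of any library was called elsewhere in the gene.

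Of the genes whose enzymes act on trimethylated H3K9 and H3K36, Kdm4a (chromosome 4, 118136957 to 118180043, minus strand) had scores of 3100, 222.63 and 81.31 at its promoter, and its H4K12me1 peak of 616 bp sat around the 4 clustered starts. Kdm4b (chromosome 17, 56326062 to 56402870, plus strand) had 3100 for KMT9alpha, 368.84 for KMT9beta and 60.27 for H4K12me1 at its upstream starts, the last above only 6.05% of its list. Its best KMT9beta and H4K12me1 promoter scores, 392.57 and 98.62, belong to peaks near an internal start 67858 bp downstream, where no KMT9alpha was called. They reached the window of that start by 9 and 1 bp.

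The H3K27 demethylase gene Kdm6b (chromosome 11, 69398508 to 69413675, minus strand) has 1 protein-coding start in GENCODE. At that start were a KMT9beta peak (69413562 to 69415838, score 300.71) and an H4K12me1 peak (69413714 to 69414546, score 134.8). KMT9alpha peaks at the ceiling of 3100 lay on either side. The upstream one, 69414744 to 69416448, ended 69 bp short of the window, and the one inside the gene, 69407960 to 69412245, lay 430 bp beyond it. The curated RefSeq transcript of Kdm6b begins 2519 bp further upstream, at 69416194. Within 1 kb of that start all 3 libraries had peaks, and with RefSeq starts all 10 genes carried all 3, against 34.8% of genes.

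Best promoter scores were compared with those of all genes that had a promoter peak of the same library. The 10 genes lay mostly in the upper part for KMT9beta and on both sides of the middle for H4K12me1. The KMT9beta score was above the median of all such genes (206.49) in 9 of 10, all but Kdm1a, and its median was 367.76. The H4K12me1 score was above the corresponding median (104.12) in 5 of 10, namely Kdm1a, Kdm1b, Kdm2a, Kdm2b and Kdm6b, with a median of 116.71. KMT9alpha was at 3100 in 7 of 9, and 45.6% of all genes with such a peak were at 3100 or above.

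Annotated starts were then compared one by one. The 10 genes have 37 starts, of which 27 had all 3 libraries, against 31.8% of the starts of all genes. Starts of 1 gene often lie close together and share the same peaks, so they are not independent. The 27 had CpG ratios from 0.291 to 0.909 (median 0.754), and the 6 without any peak had 0.161 to 0.327 (median 0.207). These 6 were internal starts, 10693 to 101243 bp downstream, in Kdm1a, Kdm1b, Kdm2a, Kdm2b and Kdm5a. Over all genes the medians were 0.658 for starts with all 3 and 0.191 for starts with none. The lowest ratio with all 3, 0.291, belonged to the internal start of Kdm2a.

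**Figure D2:**
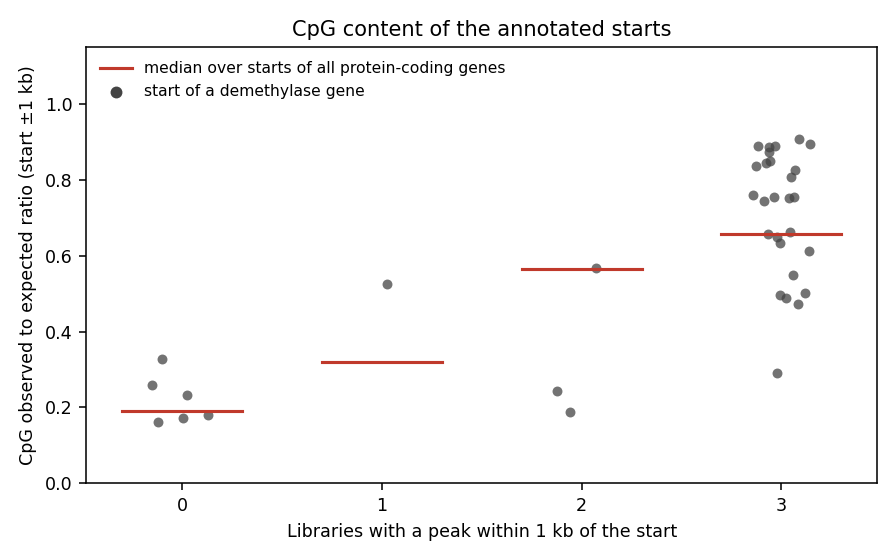
CpG observed to expected ratio within 1 kb of each of the 37 annotated starts, by the number of libraries with a peak there. Points are starts of the 10 demethylase genes, spread sideways for display, and red lines are medians over the starts of all protein-coding genes. The 6 starts with no library lie at 0.327 or below, and 26 of the 27 with all 3 lie above that.

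Motif matches were counted in the 300 bp around the first start, on both strands, and matches may overlap one another. A GC box was found in 6 of 10 genes (Kdm1a, Kdm1b, Kdm2a, Kdm3a, Kdm4b and Kdm5b), against 46.3% of all promoters and 74.5% of those in the highest CpG class. A CCAAT box was found in 4 (Kdm1a, Kdm3a, Kdm4a and Kdm4b), against 36.4%. The ETS core CCGGAAG was found in Kdm2b and Kdm5a, against 11.5%. The E-box CACGTG, the NRF1 core GCATGCGC and the CRE TGACGTCA were in none of the 10 windows, and in 7.36%, 3.27% and 2.37% of all promoters. The E-box of Kdm4b printed above lies 237 bases upstream, outside that window.

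Beyond the promoters, peaks were counted that overlapped a gene and none of its promoter windows. KMT9beta had such peaks in 9 of 10 genes, all but Kdm3a, against 49.5% of all genes and 62.0% of the 9767 genes within the length range of the 10. H4K12me1 had them in 7 of 10, against 41.0% and 51.4%. KMT9alpha had them in 4 (Kdm2a, Kdm2b, Kdm4b and Kdm6b), against 19.8% and 24.5%. There were 58 such KMT9beta peaks, 32 H4K12me1 peaks and 5 KMT9alpha peaks. Kdm4b held 21 of the KMT9beta peaks, Kdm2b 13 and Kdm4a 8. Of the 58, 25 overlapped a coding exon, by any number of bases, and 32 lay in introns. Of the 58, 16 overlapped a peak of another library, and of the 32 H4K12me1 peaks 20 did. The lists differ in length and peak width, so these counts cannot be compared with each other. No share over all genes was taken, for overlap with exons or with other libraries. Pooled over the 10 genes, body peaks ranked lower than promoter peaks. Median scores were 86.04 against 328.32 for KMT9beta and 75.6 against 116.71 for H4K12me1. Not every gene followed this order. The 3 KMT9beta body peaks of Kdm6b (384.13 to 954.41) scored above its promoter peak (300.71). In Kdm4b the lowest H4K12me1 body score, 64.31, was above the 60.27 at its upstream starts. Scores of body and promoter peaks were not compared over all genes. The counts fell with the score required, and so did the shares of all genes. With the same number of peaks from each list, KMT9beta body peaks were in 4 of the 10 genes and 23.1% of all genes, and H4K12me1 body peaks in 4 and 25.6%. With peaks at or above the median score of each list, KMT9alpha body peaks were in 1 of the 10, Kdm6b, and 6.54% of all genes.

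**Figure D3:**
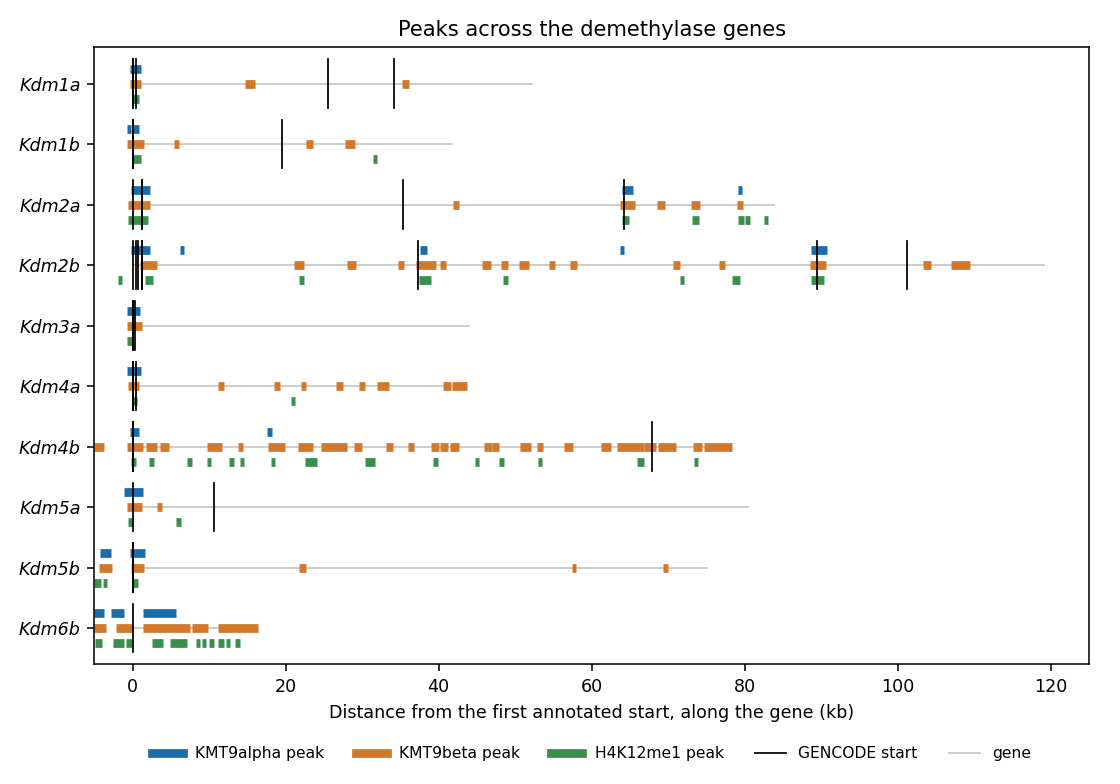
Peaks of the 3 libraries along each demethylase gene, in kb from the first annotated start. Grey lines are the genes and vertical lines GENCODE starts. KMT9beta peaks run along the whole of Kdm4b and Kdm6b, whereas Kdm3a has peaks at its start alone.

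Kdm6b and Kdm4b stood out by the share of the gene covered. KMT9beta peaks covered 81.7% of Kdm6b, H4K12me1 peaks 48.7% and KMT9alpha peaks 28.3%. Among 4698 genes of like length (within 1.5 times) the medians were 8.77%, 3.52% and 4.08%, and Kdm6b was above 99.0%, 99.0% and 98.9% of them. Its widest KMT9beta peak, 6134 bp with a score of 954.41, was wider than 99.7% of that list. It contained the whole KMT9alpha peak of 4286 bp. Kdm6b had 8 H4K12me1 peaks in its body, 7 of them over coding exons, more such peaks than 99.8% of genes of like length. The antisense RNA gene Kdm6bos lies wholly inside Kdm6b, and 1031 of its 1188 bp were in these KMT9beta peaks and 825 in H4K12me1 peaks. The KMT9beta peak at the downstream end of Kdm6b also covered 946 of the 1716 bp of the next gene, Tmem88, so these peaks cannot be given to Kdm6b alone.

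Kdm4b was covered by KMT9beta over 49.4% of its 76.8 kb and by H4K12me1 over 14.03%. Medians over 2830 genes of like length were 3.04% and 1.33%, and Kdm4b was above 98.6% and 96.8% of them. KMT9alpha covered 1.88% of the gene, above 69.2% of them, whose median was 1.27%. Of its 13 H4K12me1 body peaks, 9 overlapped a KMT9beta peak, in a gene of which KMT9beta peaks covered 49.4%. The 1 KMT9alpha peak in its body, 56343615 to 56344235, had a score of 180.1 and overlapped both other libraries. Among genes of like length, Kdm4b thus ranked higher in coverage by KMT9beta and the mark than by KMT9alpha. The KMT9alpha list is the shortest of the 3, so the covered shares themselves cannot be compared between libraries.

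The remaining genes were covered less. KMT9beta covered 20.5% of Kdm4a, 17.9% of Kdm2b, 10.5% of Kdm1b and 9.41% of Kdm2a. It covered 6.15% of Kdm1a, 4.74% of Kdm5b, 2.68% of Kdm3a and 2.40% of Kdm5a. In Kdm4a 8 KMT9beta peaks lay in the body with 1 H4K12me1 peak and 0 KMT9alpha peaks. None of the 8 overlapped another library, and no share over all genes was taken. In Kdm2a 1 site near the downstream end, at 4318570 to 4319212 over a coding exon, had all 3. KMT9alpha scored 143.54 there, KMT9beta 50.62 and H4K12me1 125.97. These were above 8.18%, 1.5% and 82.6% of their lists, so both subunits' peaks were among the weakest called. Kdm5a and Kdm5b, with ceiling KMT9alpha at the promoter, had 1 and 3 KMT9beta peaks in bodies of over 75 kb.

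**Figure D4:**
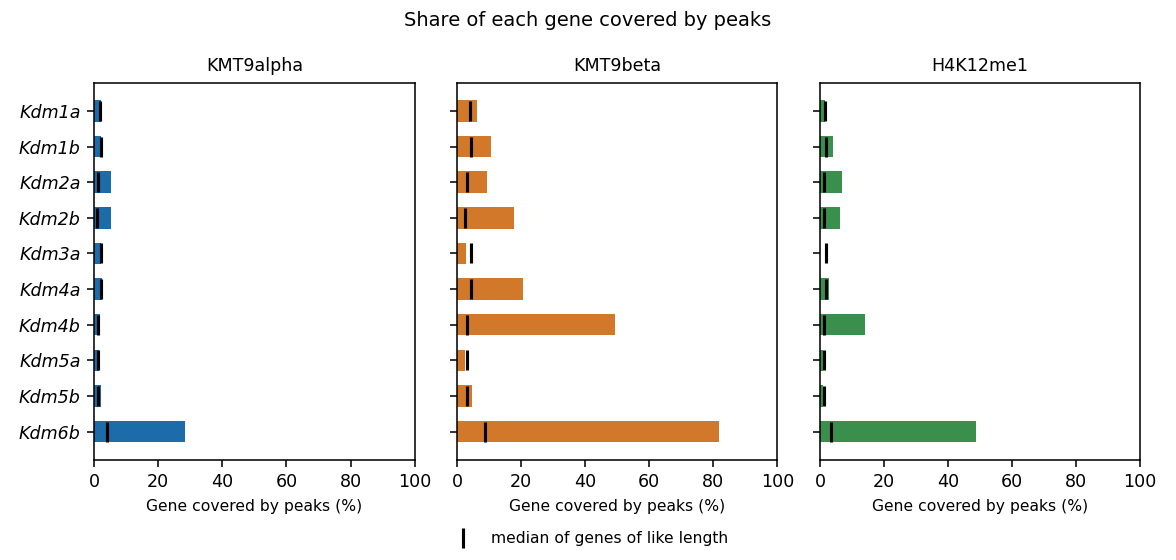
Percent of each demethylase gene, from first start to last end, covered by peaks of each library. Black ticks are medians of protein-coding genes of like length (within 1.5 times). The KMT9beta bar is 81.7% for Kdm6b and 49.4% for Kdm4b, and it is below its tick for Kdm3a and Kdm5a.

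The rest of the demethylase family was described by a list of 16 genes. All 16 had KMT9alpha at the promoter, 13 had KMT9beta, and 11 had H4K12me1 and so all 3. Over all genes the shares were 54.2%, 65.1%, 44.9% and, for all 3, 35.5%. The 11 were all 11 autosomal genes of the list: Kdm3b, Kdm4c, Kdm4d, Kdm7a, Kdm8, Jmjd1c, Phf2, Hr, Riox1, Riox2 and Jmjd6. The 5 without the mark were Kdm5c, Kdm6a and Phf8 on chromosome X, and Kdm5d and Uty on chromosome Y. Their KMT9alpha scores were 3100 in Kdm5c, Kdm6a and Phf8, 1587.82 in Kdm5d and 1103.08 in Uty. KMT9beta was called in Kdm6a (115.96) and Phf8 (52.9) alone of the 5. Over all genes of chromosome X, 30.5% had KMT9alpha at the promoter and 0.422% (4 of 948) had H4K12me1, and on chromosome Y 1.09% (2 of 183) had the mark. Kdm5c and Kdm5d, and Kdm6a and Uty, are related pairs, and the labels do not say how reads that fit both were assigned, so their peaks are uncertain.

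In the KDM5 and KDM6 subfamilies the autosomal genes carried the mark and the sex-linked ones had no such peak. Kdm5a and Kdm5b had H4K12me1 promoter scores of 85.75 and 66.19 and Kdm6b 134.8, while Kdm5c, Kdm5d, Kdm6a and Uty had no H4K12me1 peak. Only 0.422% of all genes of chromosome X and 1.09% of chromosome Y had the mark at the promoter. Its lack is therefore not particular to these subfamilies, and the peaks of the related X and Y pairs are uncertain.

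Genes of the demethylases' partners were listed too. Of 14 genes of the CoREST complex and other KDM1A partners, 12 had all 3, including the scaffold genes Rcor1, Rcor2 and Rcor3 and the deacetylase genes Hdac1 and Hdac2. The exceptions were Gfi1b, which had KMT9beta alone, and Zmym3 on chromosome X, which had KMT9alpha alone. Rcor2, on chromosome 19, had a KMT9alpha score of 3100, a KMT9beta score of 896.03 and an H4K12me1 score of 954.18. Glyr1, the KDM1B partner, had all 3. Of 9 genes of KDM2B's Polycomb partners, 6 had all 3 (Pcgf1, Ring1, Rnf2, Rybp, Usp7 and Yaf2). Bcor and Bcorl1, on chromosome X, and Skp1a lacked the mark. All 3 libraries were present at 35.5% of all genes and at 69.7% of those in the highest CpG class. The share was 85.7% in the KDM1A partners (median CpG ratio 0.689). In the KDM2B partners (0.818) it was 66.7%, near that of the highest CpG class.

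Genes of enzymes with the opposite or a parallel role were set beside them by counts. Of 31 histone methyltransferase symbols listed 30 were found, and of these genes 30 had KMT9alpha, 29 KMT9beta and 25 H4K12me1 and all 3, the exceptions to the mark being Nsd2, Prdm9, Smyd2, Smyd3 and, on chromosome X, Suv39h1. Of 16 acetyltransferase genes, 16 had KMT9alpha, 15 KMT9beta and 13 H4K12me1 and all 3, the exceptions being Kat2b, Naa40 and, on chromosome X, Taf1. The shares with all 3 were thus 90% of the 10 demethylase genes, 83.3% of methyltransferase and 81.2% of acetyltransferase genes. Over all genes the share was 35.5%, and in the highest CpG class 69.7%. Median CpG ratios were 0.785, 0.785 and 0.771. The median share of the gene covered by KMT9beta was 9.96% in the 10 demethylase genes, 5.09% in the methyltransferase genes, 3.22% in the acetyltransferase genes and 4.93% over all genes. It was 9.8% in the KDM1A partner genes, so the value is not particular to the demethylase genes. In the KDM2B partner genes it was 4.94%, and in the 16 other demethylase genes 3.33%. No test of these differences was made, since each library is unreplicated.

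**Figure D5:**
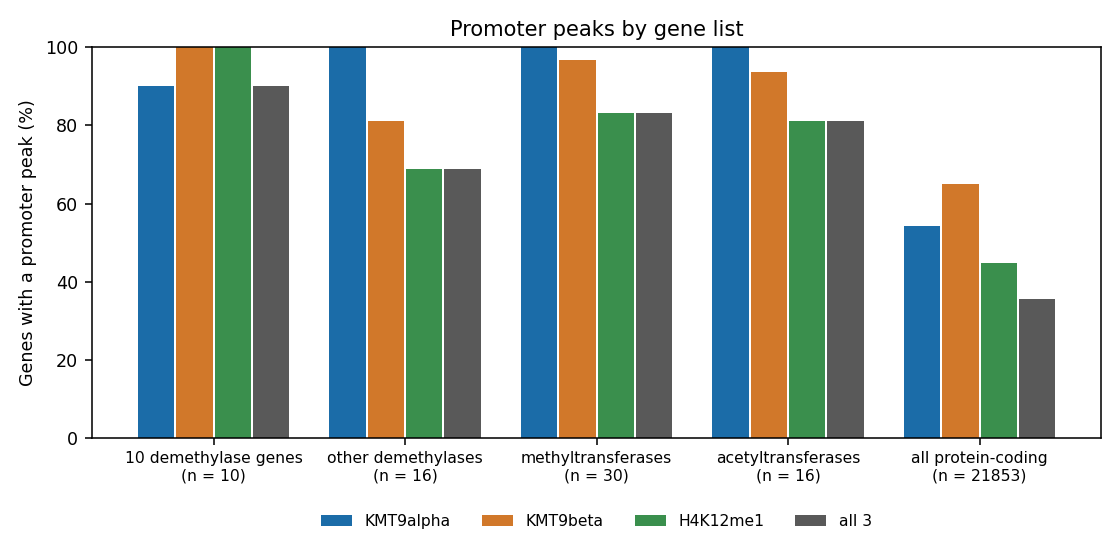
Percent of genes with a promoter peak of each library, and of all 3, in the 10 demethylase genes, 16 other demethylase genes, 30 methyltransferase genes, 16 acetyltransferase genes and all 21853 protein-coding genes. The bars for all 3 are 90%, 68.8%, 83.3%, 81.2% and 35.5%.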

How the data were processed

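The files are peak lists of 3 ChIP-seq libraries, 1 per antibody. Per the labels, reads were mapped to mm10; the protocol names STAR and the submitters' processing notes name Bowtie2. Peak names begin with MACS, per the file contents; the labels give no version, threshold or control for the peak calls. The deposited score per peak starts at 50, and its exact meaning is not stated.

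Only peaks on the assembled chromosomes were used. Starts were those of protein-coding transcripts of protein-coding genes in GENCODE M21 (GRCm38, the mm10 assembly). Promoters reached 1 kb to each side of every start, and an overlap of 1 bp sufficed. Gene-body peaks touch the gene and none of its promoter windows. Sequence was read from GRCm38.p6 (RefSeq). All 10 genes are named, as are list genes where a short count needs names. The genes and lists were chosen with earlier results of these data known. With 1 library per antibody no test was possible. The overlap step was tested on simulated peaks at 4395 isolated starts and misassigned 0. Python 3.11.15, numpy 2.4.6, pandas 2.3.3 and matplotlib 3.10.9 were used. Alternatives changed the window, the starts, the overlap rule and the peaks used.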

Additional observations from a re-analysis of the deposited data

How the results depend on the processing

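The 5 promoter counts stayed within 1.5 times their value under all 9 alternatives each. That limit is wide: no rise from 9 of 10 could exceed it, and a fall from 9 to 6 did not. The count of genes with all 3 libraries was lowest, 7, with the 26146 highest-scoring peaks of each list, where 22.2% of all genes had all 3. It was highest, 10, with a half-width of 2.5 kb (39.1% of all genes) or with RefSeq starts (34.8%). All 3 at the same start were found in 6 genes with equal list lengths (21.4% of all genes). They were found in 7 with peaks at or above the median score (22.2%). Kdm4b was lost as well in these settings: its remaining H4K12me1 promoter peak reaches the window of an internal start by 1 bp. With equal list lengths Kdm4a and Kdm5b lost H4K12me1 (28.9% of all genes had it). With peaks at or above the median score Kdm5b did (30.9% of all genes had it). Without chromosome 19, which removes Kdm2a, 8 of 9 genes had all 3, against 34.6% of all remaining genes. Leaving out chromosome 19 and using RefSeq starts were chosen after seeing the data. Gene-body counts depended more on the score. With peaks at or above the median score KMT9alpha body peaks were in 1 gene (Kdm6b) instead of 4, and H4K12me1 body peaks in 4 instead of 7, while the shares of all genes fell from 19.8% to 6.54% and from 41.0% to 28.2%. With equal list lengths KMT9beta body peaks were in 4 genes instead of 9, and H4K12me1 body peaks in 4, while the shares of all genes fell from 49.5% to 23.1% and from 41.0% to 25.6%. No paired analysis was possible because each antibody has 1 library. Unknown depth limits what the lack of a peak can show, and fewer genes were reached when fewer peaks of a list were kept.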

Other observations

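Over all the chromatin genes described (the demethylases, their partners, the methyltransferases and the acetyltransferases), 8 lie on chromosome X: Bcor, Bcorl1, Kdm5c, Kdm6a, Phf8, Suv39h1, Taf1 and Zmym3. All 8 had a KMT9alpha promoter peak, against 30.5% of all genes of chromosome X, and 3 had KMT9beta. None had H4K12me1, which is near the share of 0.422% over all genes of that chromosome. Of the 86 autosomal genes 84 had KMT9alpha, 86 had KMT9beta and 78 had H4K12me1. Over all protein-coding genes the shares were 54.2%, 65.1% and 44.9%. Shares over autosomal genes alone, and of KMT9beta on chromosome X, were not taken. Grouping these genes by chromosome was chosen after their values were seen.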
